A study of Mus musculus with 9 samples.

Results

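The comparison described here set the 6 libraries from tumours treated with a checkpoint antibody, 3 given anti-B7-H3 and 3 given anti-PD1, against the 3 libraries treated with control IgG. Its members were chosen by the treatment named in the library titles, and they make up 9 of the 9 libraries of the series. The quantity tested was the mean of the 2 antibody arms minus the mean of the controls, so each arm carried the same weight. All groups were C57BL/6J mice with a working immune system that carried subcutaneous YUMM 2.1 allografts, a single mouse melanoma line, and treatment was begun at tumour volumes of 20 to 50 mm3. RNA came in each case from sorted CD45+ cells, the immune cells of the tumour. Age, dose, time of collection and whether replicates were separate animals are not stated in the labels, so p-values measure the spread between these samples, which may in part be technical. An arm with both antibodies that the series design names was not analysed here.

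PD1 (gene Pdcd1) is an inhibitory receptor of activated T cells, and its ligands PD-L1 and PD-L2 are made by myeloid and tumour cells. B7-H3 (gene Cd276) is a surface protein of the B7 family, found on many tumours and on some myeloid cells. Tumours of this kind hold T cells and NK cells beside macrophages, monocytes, neutrophils and dendritic cells. Macrophages take up antibody-coated and dying cells, present antigen on MHC class II, and release chemokines, interleukin 1, complement and matrix proteases.

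Antibody treatment was accompanied by a broad rise of myeloid transcripts in the sorted cells of both arms. Of 13178 genes tested with edgeR's quasi-likelihood test, 196 (1.49%) passed an adjusted p of 0.05. Of these, 192 (1.46%) were higher with antibody and 4 (0.0304%) were lower. The median log2 fold change over all tested genes was -0.02. Among the 192 that rose, the median was 2.08, 102 exceeded 4-fold, 47 exceeded 8-fold and 9 were below 2-fold. In 189 of the 192, each antibody library lay above each control, against 5.43% of all tested genes, and the exceptions were Mt1, Plk3 and Nfkbiz. The 4 genes that fell were Ifit3, Ifit1, Ifit3b and Il7r, all with groups that did not overlap, against 2.25% of tested genes. Called genes were chosen by a test of these same libraries, so both shares without overlap follow in part from that choice. They add no support to the calls. In bulk RNA, more cells of a type and more RNA per cell cannot be told apart, and values are shares of the RNA of the sorted population.

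Library totals in counts assigned to genes were 18422231, 14441241 and 20428879 in IgG controls 1, 2 and 3. They were 15009389, 29277395 and 31447314 in anti-B7-H3 1, 2 and 3 and 30041318, 28046070 and 24189981 in anti-PD1 1, 2 and 3. Genes with at least 10 counts numbered 10792 to 12258 in the controls and 11743 to 13213 with antibody. The part of depth in the changes of genes near 0 in the controls was not tested. A pair of libraries stood apart. On the component that held 35.9% of the variance, IgG control 2 scored 192 while the remaining 8 scored from -54.9 to 31.1, and it had 1896 tested genes at 0. Anti-PD1 3 scored -149 on the next component (18.5%) and had 1248 genes at 0, against 822 in IgG control 3 and 224 to 308 in the remaining 6. Without IgG control 2, 235 genes passed, and without both of these libraries 208 passed (204 higher, 4 lower), which included 141 of the 196. Levels below are TMM-scaled CPM (counts scaled to a common library size). Each change is the log2 fold change ± SE with its edgeR adjusted p, over all tested genes. Counts in gene lists stand beside these shares of all 13178 tested genes. With edgeR 1.46% were called higher and 0.0304% lower, and 11.7% had an unadjusted p under 0.05 in either direction. DESeq2 called 691 of the tested genes and limma-voom 147. In 9 fits that each left out 1 library, 102 of the 196 genes passed every time, and the number of these fits in which a call held is given below for called genes where it was under 9 (2 for Plk3). Where leaving out 1 library moved a called change by more than 1.5-fold, the value without that library follows; where the other controls are at 0, that value depends on the prior count and is no bound.

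**Figure D1:**
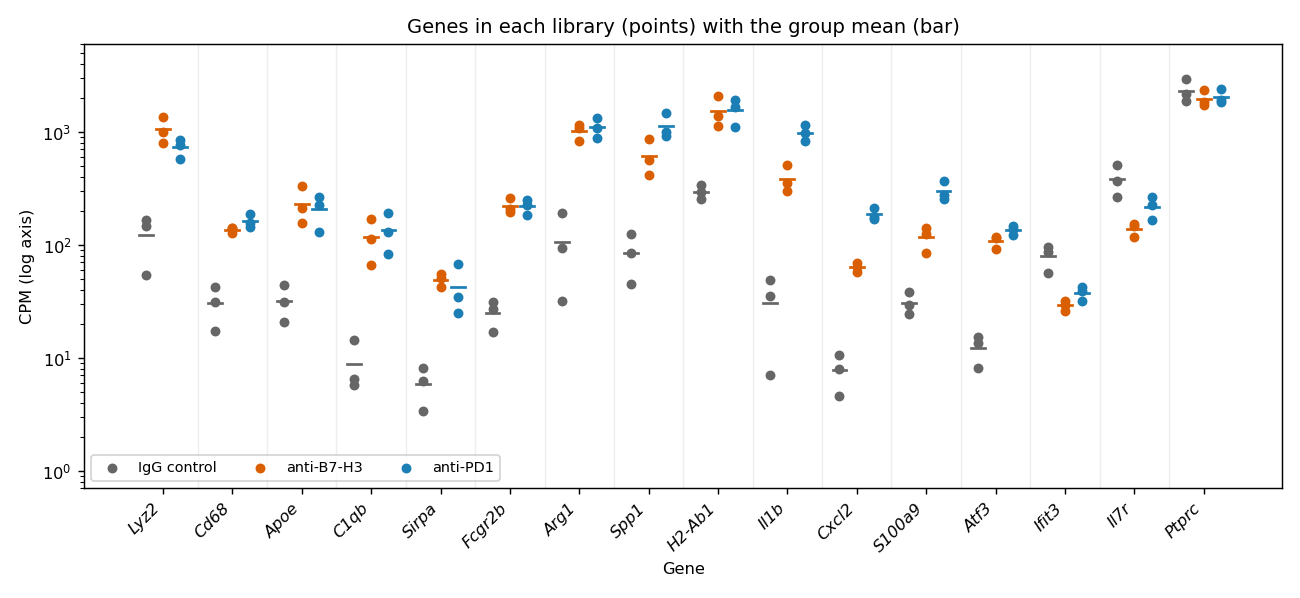
Level as TMM-scaled CPM (log axis) of 16 genes in each library, with points for libraries and bars for the mean of each group of 3. For 15 of the genes the controls do not overlap with the 6 antibody libraries, 13 of them higher and Ifit3 and Il7r lower with antibody, while Ptprc, the gene of CD45, overlaps.

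Genes of the antibody targets and related checkpoints were read first. Ptprc, which encodes CD45, stood at 2913, 2168 and 1871 CPM in IgG controls 1, 2 and 3 and 1718 to 2411 CPM (median 1879) in the 6 antibody libraries. Its levels overlapped between groups (-0.21 ± 0.20, adjusted p = 0.778), so the marker used for the sort was present in each library. Pdcd1, the PD1 gene, stood at 173, 234 and 103 CPM in the controls and 44.5 to 170.5 CPM (median 119.5) with antibody (-0.57 ± 0.34, adjusted p = 0.585). Cd276, the B7-H3 gene, was low in all groups, with 0.852, 0 and 0 CPM in the controls and at most 2.83 CPM with antibody (1.97 ± 1.80, adjusted p = 0.768). An antibody against a protein need not change its transcript, so these genes are no test of the labels.

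Among the ligands, Sirpa was the single member of 12 tested B7 and other checkpoint ligands that rose with the arms averaged. Fitted for each arm against IgG, 1 of the 12 passed for anti-B7-H3 and 3 for anti-PD1. Sirpa encodes SIRP-alpha, the myeloid receptor that binds CD47 and restrains phagocytosis, and was counted among the ligands for that reason. It stood at 6.27, 3.4 and 8.04 CPM in IgG controls 1, 2 and 3 and 24.7 to 67.6 CPM (median 46.5) in the 6 antibody libraries, with no overlap (2.95 ± 0.41, adjusted p = 0.00453). Cd47, its partner, overlapped between the groups at 537, 619 and 627 CPM in the controls and 533 to 652 CPM (median 551) with antibody (-0.06 ± 0.14, adjusted p = 0.911). Pdcd1lg2, which encodes PD-L2, was higher in each antibody library, at 3.96, 3.9 and 3.89 CPM in the controls and 9.19 to 14.5 CPM (median 12.2) with antibody, but missed the threshold (1.59 ± 0.35, adjusted p = 0.0558). Cd274, which encodes PD-L1, overlapped in 1 anti-B7-H3 library, at 23.7, 9.1 and 19.6 CPM in the controls and 20.3 to 73.3 CPM (median 43.4) with antibody (1.25 ± 0.35, adjusted p = 0.142). The list's median log2 change was 1.16.

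Of 18 listed macrophage markers 17 were tested, 10 rose, 0 fell, and 15 had groups without overlap. Their median log2 change was 3.42, beside -0.02 for all tested genes. Of all tested genes 1.46% were called higher, and in 5.43% each antibody library lay above each control. Summed over the list, levels were 158 to 362 CPM in the controls, 2148 to 3173 CPM in the anti-B7-H3 arm and 1944 to 2510 CPM in the anti-PD1 arm. IgG control 2 was the lowest control for Cd68, Lyz2 and Cd14, and without it 10 markers passed with a median of 2.91.

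Cd68, a glycoprotein of macrophage lysosomes, stood at 30.9, 17.3 and 42.4 CPM in IgG controls 1, 2 and 3 and 126 to 186 CPM (median 142) in the 6 antibody libraries. Its lowest antibody library was well above its highest control (2.29 ± 0.27, adjusted p = 0.00196). Lyz2, the myeloid lysozyme, stood at 166, 54 and 147 CPM in the controls and 573 to 1354 CPM (median 819.5) with antibody (2.84 ± 0.37, adjusted p = 0.00354). Apoe, a lipid carrier made by tissue macrophages, stood at 20.5, 31.4 and 44.3 CPM in the controls and 129 to 329.6 CPM (median 217) with antibody (2.77 ± 0.36, adjusted p = 0.00354). Neither of these overlapped between the groups. Mrc1, the mannose receptor, stood at 4.01, 0.867 and 0.415 CPM in the controls and 15.7 to 55.4 CPM (median 33.2) with antibody (4.33 ± 0.76, adjusted p = 0.0198, 5.83 without IgG control 1, 6 of 9 fits, adjusted p up to 0.0739; 4.02, adjusted p = 0.0739, without IgG control 2). Cd14, the lipopolysaccharide co-receptor, stood at 28.1, 3.03 and 30.2 CPM in the controls and 209 to 552 CPM (median 354) with antibody (4.10 ± 0.68, adjusted p = 0.023). The call of Cd14 held in 1 of 9 fits, that without IgG control 2 (3.61, adjusted p = 0.000154), and in the others its adjusted p reached 0.0737. Itgam, the integrin CD11b, passed with the smallest margin (2.14 ± 0.45, adjusted p = 0.0488, 2 of 9 fits).

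Complement genes rose in the same direction. Of 15 tested members 6 rose and 0 fell, beside 1.46% of all tested genes called higher. The list's median log2 change was 3.55, or 3.38 with a gene absent from the controls set at its lower bound. Genes can pass the filter on low counts through the antibody libraries alone, so this median can be too high. The genes of the 3 chains of C1q, which starts the classical pathway on bound antibody, lie side by side on chromosome 4. C1qb stood at 6.47, 5.76 and 14.4 CPM in the controls and 65.9 to 192 CPM (median 122) with antibody (3.82 ± 0.47, adjusted p = 0.00342). C1qa (3.32 ± 0.47, adjusted p = 0.00496) and C1qc (3.55 ± 0.50, adjusted p = 0.00542, 4.25 without IgG control 3) rose by similar amounts, and none of the 3 overlapped. C5ar1, the receptor for the chemoattractant fragment C5a, stood at 3.41, 3.53 and 7.78 CPM in the controls and 37.2 to 99.9 CPM (median 68) with antibody (3.70 ± 0.36, adjusted p = 0.000627). Cfp, which encodes properdin, a stabiliser of the alternative pathway, also rose (2.55 ± 0.37, adjusted p = 0.0055, 3.26 without IgG control 3).

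Receptors for the antibody Fc part and for uptake of particles rose in 9 of 20 tested members, beside 1.46% of all tested genes. There were 0 falls and the median was 2.77. Fcgr2b, the inhibitory Fc receptor, stood at 26.9, 16.7 and 31.3 CPM in IgG controls 1, 2 and 3 and 185 to 259 CPM (median 215) in the 6 antibody libraries, and the 3 anti-B7-H3 and 3 anti-PD1 libraries rose by the same fitted amount (3.13 ± 0.25, adjusted p = 0.000389). Fcgr3, an activating receptor, stood at 44.8, 11.3 and 55 CPM in the controls and 175 to 253 CPM (median 228) with antibody (2.60 ± 0.44, adjusted p = 0.0163, 8 of 9 fits, not without IgG control 1). Fcgr4, the activating receptor with high affinity for mouse IgG2 subclasses, stood at 0.1, 0 and 0.674 CPM in the controls and 3.8 to 15.5 CPM (median 10.02) with antibody (5.25 ± 1.08, adjusted p = 0.0389, 7.43 without IgG control 3, 3 of 9 fits, adjusted p up to 0.114). These 3 did not overlap between groups. Fcrlb, an intracellular relative of Fc receptors in the set of largest rises, stood at 0.902, 0.0619 and 1.19 CPM in the controls and 9.02 to 23.7 CPM (median 14.1) with antibody (4.40 ± 0.76, adjusted p = 0.0146, 8 of 9 fits, not without IgG control 1, adjusted p up to 0.0531). Inhibitory receptors of myeloid cells were among the risers: Pirb (2.52 ± 0.25, adjusted p = 0.000627), Pilra (2.497 ± 0.34, adjusted p = 0.00453) and Cd300lf (1.92 ± 0.27, adjusted p = 0.00453). Cd300ld, a further member of the CD300 family, stood at 0.953, 0 and 0 CPM in the controls and 10.2 to 30.7 CPM (median 16) with antibody (5.70 ± 1.14, adjusted p = 0.0396, 11.69 without IgG control 1, 2 of 9 fits, adjusted p up to 0.114).

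Myeloid C-type lectins bind sugars on microbes and dying cells. They rose in 5 of 16 tested members (median 2.78), beside 1.46% of all tested genes. Mgl2, a galactose-binding lectin of macrophages and dendritic cells, stood at 14.2, 23.3 and 14.9 CPM in the controls and 111 to 293 CPM (median 222) with antibody, with no overlap (3.62 ± 0.32, adjusted p = 0.000598). Clec5a, an activating receptor of monocytes and neutrophils, stood at 0.802, 0 and 0.156 CPM in the controls and 9.65 to 18 CPM (median 10.3) with antibody (5.20 ± 0.93, adjusted p = 0.0182, 7.16 without IgG control 1, 7 of 9 fits, not without IgG control 3 or anti-PD1 1, adjusted p up to 0.0709). Clec7a, the beta-glucan receptor Dectin-1, stood at 13.4, 1.73 and 13.5 CPM in the controls and 71.6 to 119 CPM (median 86.9) with antibody (3.24 ± 0.58, adjusted p = 0.023) and passed in 1 of 9 fits, that without IgG control 2, adjusted p up to 0.0735. Without IgG control 2 the list had 8 calls, and 2 without anti-B7-H3 2, anti-PD1 1 or anti-PD1 2.

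MHC class II genes rose together, at 7 of 12 tested members, beside 1.46% of all tested genes (0 falls, median 1.97). H2-Ab1, a chain of the peptide-presenting molecule, stood at 255, 291 and 335 CPM in IgG controls 1, 2 and 3 and 1107 to 2079 CPM (median 1525) in the 6 antibody libraries. All antibody libraries were more than 3 times the highest control (2.39 ± 0.27, adjusted p = 0.00149). H2-Aa (2.501 ± 0.35, adjusted p = 0.00453), H2-Eb1 (2.05 ± 0.30, adjusted p = 0.00578) and Cd74, the invariant chain (1.93 ± 0.31, adjusted p = 0.01), also rose. So did the peptide-loading chaperones H2-DMb1 (2.13 ± 0.20, adjusted p = 0.000627), H2-DMb2 (2.09 ± 0.33, adjusted p = 0.00963) and H2-DMa (1.03 ± 0.18, adjusted p = 0.0159, 7 of 9 fits, not without IgG control 1 or anti-PD1 2). H2 genes are close relatives of each other, so reads can be shared between them. Ciita, the master transcription factor of class II genes, was higher but missed the threshold (1.86 ± 0.46, adjusted p = 0.0886). For MHC class I presentation, 0 of 15 tested genes passed with edgeR, 0 had an unadjusted p under 0.05 (11.7% of all tested genes did), 0 passed with DESeq2 or limma-voom, and the median was 0.00.

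Monocyte, neutrophil and dendritic cell lists were read beside these. Of 14 tested monocyte markers 4 rose and 0 fell (median 1.33). Hp, which encodes haptoglobin, stood at 12.2, 10.1 and 10.4 CPM in the controls and 35.4 to 76.3 CPM (median 67.8) with antibody (2.43 ± 0.27, adjusted p = 0.00131). F10, coagulation factor X, stood at 6.97, 10.9 and 9.55 CPM in the controls and 46.5 to 91.7 CPM (median 53.8) with antibody (2.77 ± 0.32, adjusted p = 0.00177). Nr4a1, an orphan nuclear receptor of patrolling monocytes and stimulated cells, stood at 352, 307 and 345 CPM in the controls and 710.1 to 1467 CPM (median 1202) with antibody (1.80 ± 0.24, adjusted p = 0.00381). None of these 3 overlapped. Ms4a6c rose by less (1.15 ± 0.20, adjusted p = 0.0159, 7 of 9 fits, not without IgG control 3 or anti-B7-H3 2, adjusted p up to 0.0568).

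Neutrophil markers rose in 5 of 14 tested members (median 2.499), where 1.46% of all tested genes did. Among the 15 listed, Ly6g was below the filter on low counts and was not tested. In 12 of the 14 each antibody library lay above each control, beside 5.43% of all tested genes. Fitted for each arm against IgG, 3 of the 14 passed for anti-B7-H3 and 9 for anti-PD1. S100a9 and S100a8 encode the subunits of calprotectin. S100a9 stood at 24.5, 38.1 and 29.2 CPM in IgG controls 1, 2 and 3 and 84.4 to 365 CPM (median 197) in the 6 antibody libraries (2.60 ± 0.25, adjusted p = 0.000627). S100a8 stood at 19.7, 37.6 and 24.8 CPM in the controls and 58 to 271 CPM (median 144) with antibody (2.35 ± 0.32, adjusted p = 0.00413), and for both the anti-PD1 libraries were the highest. Csf3r, the receptor for G-CSF, stood at 10.8, 7.8 and 2.65 CPM in the controls and 49 to 163 CPM (median 100.2) with antibody (3.84 ± 0.51, adjusted p = 0.00439). Cxcr2, the receptor for the chemokines Cxcl1 to Cxcl3, stood at 2.31, 6.56 and 1.92 CPM in the controls and 9.19 to 29 CPM (median 21.8) with antibody (2.39 ± 0.50, adjusted p = 0.0408, 3.18 without IgG control 2), and Hdc, the histamine-forming enzyme, at 7.72, 0.619 and 6.59 CPM in the controls and 19.9 to 110.5 CPM (median 67.6) with antibody (3.42 ± 0.67, adjusted p = 0.0408). Both of the last passed in 1 of 9 fits, that without IgG control 2 (in the others adjusted p up to 0.13 and 0.128), where 11 of the 14 neutrophil markers passed. In the other 8 fits 3 or 4 did.

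Of 11 tested type 2 dendritic cell markers 4 rose (median 1.66): Mgl2, Sirpa, Klf4, a transcription factor (2.72 ± 0.31, adjusted p = 0.00169), and Cd209a (1.54 ± 0.32, adjusted p = 0.0396, 2 of 9 fits, adjusted p up to 0.109). These are shared with macrophages and monocytes. Of 12 tested migratory dendritic cell markers 1 passed, Ccl17, a chemokine that attracts T cells, at 15.3, 30.6 and 40.6 CPM in the controls and 80.8 to 154 CPM (median 103) with antibody (1.94 ± 0.33, adjusted p = 0.0129). With edgeR 0 of 10 type 1 dendritic cell markers passed, while 5 were higher and 1 lower at an unadjusted p under 0.05, and DESeq2 gave 3 and 1 and limma-voom 0. Itgae, an integrin that these cells share with resident T cells, was lower in each antibody library, at 351, 331 and 324 CPM in the controls and 90.02 to 212 CPM (median 193) with antibody (-0.95 ± 0.23, adjusted p = 0.0786).

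Of 20 tested chemokine ligands 10 rose and 0 fell, with a median of 2.40. Cxcl1, Cxcl2 and Cxcl3 encode ligands of Cxcr2 that attract neutrophils, and they lie within 1 cluster on chromosome 5. Their promoters are shown because these 3 neighbours rose and each held a match to a binding motif of NF-kB, a transcription factor of inflammatory genes; the promoters were chosen after the motif search. Each sequence is the 250 bases before the RefSeq transcription start on GRCm38.p6, 5′ to 3′ on the gene's strand. Capitals mark matches to the NF-kB letters GGGNN directly followed by TTNCC, or the AP-1 letters TGANTCA on either strand. Positions are chr5:90890995-90891244, plus strand, for Cxcl1, chr5:90903649-90903898, plus strand, for Cxcl2, and chr5:90785851-90786100, plus strand, for Cxcl3. Ccl9, at chr11:83578637-83578886, minus strand, held a match to each motif, the AP-1 match 53 to 47 and the NF-kB match 35 to 26 bases before the start.
Cxcl1: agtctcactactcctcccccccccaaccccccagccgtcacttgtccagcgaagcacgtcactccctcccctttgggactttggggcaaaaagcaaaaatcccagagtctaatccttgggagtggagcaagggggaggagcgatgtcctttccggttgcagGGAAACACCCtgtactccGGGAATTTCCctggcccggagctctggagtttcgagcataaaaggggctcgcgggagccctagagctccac
Cxcl2: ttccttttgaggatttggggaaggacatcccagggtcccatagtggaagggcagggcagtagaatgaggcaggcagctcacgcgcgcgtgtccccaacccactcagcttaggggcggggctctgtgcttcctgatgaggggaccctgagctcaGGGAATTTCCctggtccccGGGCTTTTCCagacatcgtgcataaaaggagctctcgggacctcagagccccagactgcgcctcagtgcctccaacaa
Cxcl3: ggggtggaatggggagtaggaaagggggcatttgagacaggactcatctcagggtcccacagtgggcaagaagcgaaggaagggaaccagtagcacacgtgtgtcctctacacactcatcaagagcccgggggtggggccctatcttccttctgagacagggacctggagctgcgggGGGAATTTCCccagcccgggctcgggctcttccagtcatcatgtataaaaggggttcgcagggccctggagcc
Ccl9: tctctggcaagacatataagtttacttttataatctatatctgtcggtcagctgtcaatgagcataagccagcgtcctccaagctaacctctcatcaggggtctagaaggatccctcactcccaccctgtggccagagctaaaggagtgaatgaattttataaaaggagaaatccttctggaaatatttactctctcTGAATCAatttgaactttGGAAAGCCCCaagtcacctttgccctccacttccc

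Cxcl2 stood at 7.97, 4.58 and 10.6 CPM in IgG controls 1, 2 and 3 and 57 to 212 CPM (median 119) in the 6 antibody libraries. No groups overlapped, and the anti-PD1 libraries were the highest (3.81 ± 0.29, adjusted p = 0.00034). Cxcl3 stood at 1.1, 2.48 and 0.882 CPM in the controls and 3.12 to 36.6 CPM (median 28.1) with antibody (3.79 ± 0.71, adjusted p = 0.0238, 4.38 without IgG control 2, 3.19 without anti-B7-H3 2, 4 of 9 fits). Cxcl1 had 0 counts in all 3 controls and 464 in the antibody libraries (adjusted p = 0.0408, 1 of 9 fits, that without IgG control 2). These were 13, 47 and 12 counts in anti-B7-H3 1, 2 and 3 and 157, 125 and 110 in anti-PD1 1, 2 and 3. Summed over the 6 antibody libraries, the level was at least 55.0-fold higher against a floor of 3 counts over the controls. That bound weighs libraries by depth and is no bound for each arm. The NF-kB matches lay 89 to 80 and 71 to 62 bases before the start in Cxcl1, 97 to 88 and 78 to 69 in Cxcl2, and 73 to 64 in Cxcl3.

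Over the 152 higher genes with a promoter in the RefSeq table, 10 (6.58%) held the NF-kB letters, beside 4.65% of 10086 tested genes and 4% of all 27025 promoters of that length. The AP-1 letters were held by 9 (5.92%), beside 4.31% and 6.87%. The cAMP response letters TGACGTCA were held by 5 (3.29%), beside 2.71% and 1.62%. A looser NF-kB form, GGGNN directly followed by NNNCC, which includes each stricter match, was held by 59.9% of the higher genes and 61.0% of tested genes. A match is a description of these letters alone.

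CC chemokines that attract monocytes rose as well. Ccl6 stood at 13.9, 15.9 and 24.3 CPM in the controls and 107 to 214 CPM (median 135) with antibody (3.06 ± 0.30, adjusted p = 0.000627). Ccl9 stood at 7.32, 9.78 and 6.49 CPM in the controls and 34.7 to 62.9 CPM (median 47.1) with antibody (2.61 ± 0.30, adjusted p = 0.00161). Cxcl16, which attracts Cxcr6-bearing T cells, stood at 7.62, 7.18 and 8.2 CPM in the controls and 24.4 to 54 CPM (median 36) with antibody (2.30 ± 0.30, adjusted p = 0.00349). None of these overlapped. Ccl24, an eosinophil attractant, had the largest change of a CC chemokine among the calls, at 13.5, 12.7 and 62.6 CPM in the controls and 315 to 774 CPM (median 435) with antibody (4.02 ± 0.68, adjusted p = 0.0238, 5.20 without IgG control 3, 4 of 9 fits). The T cell and monocyte attractants Ccl3 (1.86 ± 0.26, adjusted p = 0.00453) and Ccl4 (1.71 ± 0.32, adjusted p = 0.0225, 5 of 9 fits) rose by less. Leaving out IgG control 2 and anti-PD1 3 together left 6 calls in this list, as did leaving out anti-PD1 1 or anti-PD1 2.

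Of 17 tested chemokine receptors 2 rose, Cxcr2 and Ccr1, a receptor for CC chemokines of monocytes and neutrophils, at 27.5, 56.1 and 17.6 CPM in the controls and 74.9 to 197 CPM (median 127) with antibody (1.90 ± 0.36, adjusted p = 0.0238, 2.499 without IgG control 2, 3 of 9 fits, adjusted p up to 0.0966). Over the 9 fits the list had 0 to 3 calls, with 3 without IgG control 2. With all 9 libraries, 1.46% of all tested genes were called higher. The list's median was 0.07, and Ccr6, a receptor of several lymphocyte types, went the other way without passing (-1.25 ± 0.41, adjusted p = 0.242).

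In the interleukin 1 family 3 of 16 tested genes rose, and they were both agonists and the antagonist. Il1b (GRCm38 chr2:129364570-129371139) stood at 35.3, 6.99 and 48.3 CPM in IgG controls 1, 2 and 3 and 298 to 1139 CPM (median 666) in the 6 antibody libraries. The 3 anti-PD1 libraries were the highest and IgG control 2 the lowest (4.35 ± 0.59, adjusted p = 0.00704). Il1a stood at 0.602, 4.58 and 0.674 CPM in the controls and 13 to 80.4 CPM (median 38.5) with antibody (4.16 ± 0.69, adjusted p = 0.0143, 5.77 without IgG control 2). Il1rn, which encodes the receptor antagonist, stood at 6.07, 3.28 and 5.45 CPM in the controls and 28.3 to 79 CPM (median 42.6) with antibody (3.17 ± 0.30, adjusted p = 0.000627), again with no overlap. The median of the list was 0.06. The Il1rn promoter (chr2:24336610-24336859, plus strand) held an AP-1 match 141 to 135 bases before the start, shown in capitals because AP-1 genes rose too.
Il1rn: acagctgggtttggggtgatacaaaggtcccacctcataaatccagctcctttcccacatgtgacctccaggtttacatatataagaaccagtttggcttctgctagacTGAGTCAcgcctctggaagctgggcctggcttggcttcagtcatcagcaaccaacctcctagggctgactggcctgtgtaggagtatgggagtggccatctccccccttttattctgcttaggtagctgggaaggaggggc

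Immediate-early genes, which switch on within minutes of stimulation or of tissue handling, rose in 10 of 24 tested members with 0 falls (median 1.01). In 21 of the 24 each antibody library lay above each control, beside 5.43% of all tested genes. Atf3, a stress-induced repressor of the ATF family, stood at 15.2, 8.17 and 13.5 CPM in IgG controls 1, 2 and 3 and 92.1 to 148 CPM (median 119) in the 6 antibody libraries (3.30 ± 0.25, adjusted p = 0.00034). Fos, a subunit of AP-1, stood at 508, 511 and 704 CPM in the controls and 1301 to 1650 CPM (median 1534) with antibody (1.40 ± 0.18, adjusted p = 0.00346). The other AP-1 subunits that passed were Fosl2 (2.07 ± 0.33, adjusted p = 0.01), Jun (1.04 ± 0.20, adjusted p = 0.0273, 3 of 9 fits) and Junb (0.98 ± 0.17, adjusted p = 0.015, 6 of 9 fits). Zfp36, which degrades cytokine transcripts, stood at 483, 408 and 589.5 CPM in the controls and 1027 to 1736 CPM (median 1355) with antibody (1.499 ± 0.19, adjusted p = 0.00342). Neither Fos nor Zfp36 overlapped between the groups. The phosphatase Dusp1 (1.14 ± 0.19, adjusted p = 0.0128, 8 of 9 fits, not without IgG control 1) and Ier5 (0.74 ± 0.15, adjusted p = 0.0328, 1 of 9 fits, that without IgG control 1) completed the calls with Klf4 and Nr4a1.

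Of 21 tested NF-kB targets and feedback inhibitors 3 rose with the arms averaged (median 0.81). Fitted for each arm against IgG, 2 passed for anti-B7-H3 and 6 for anti-PD1. Ier3, a survival gene of stimulated cells, stood at 17.5, 11.7 and 17.7 CPM in the controls and 56.8 to 132 CPM (median 101) with antibody (2.65 ± 0.25, adjusted p = 0.000627). Tnfaip2 stood at 6.62, 1.55 and 1.09 CPM in the controls and 23 to 76.2 CPM (median 44.4) with antibody (3.92 ± 0.61, adjusted p = 0.00998, 5.17 without IgG control 1). Nfkbiz, a nuclear regulator of NF-kB, overlapped in 1 antibody library (1.47 ± 0.31, adjusted p = 0.0437, 1 of 9 fits, that without anti-B7-H3 1, adjusted p up to 0.145). Nfkbia, the main inhibitor, was higher without passing (0.81 ± 0.20, adjusted p = 0.0915). Heat-shock chaperones, which also respond to handling, had 2 calls of 14 (0 to 3 over the 9 fits, 3 without IgG control 3), Bag3 (1.68 ± 0.35, adjusted p = 0.04, 1 of 9 fits, that without anti-PD1 3, adjusted p up to 0.114) and Hspb1 (1.93 ± 0.40, adjusted p = 0.0408, 2 of 9 fits, adjusted p up to 0.115). Summed chaperone levels were 16220 to 26860 CPM in the controls, 29960 to 32480 CPM in the anti-B7-H3 arm and 34180 to 53290 CPM in the anti-PD1 arm. The part of tissue handling in these changes was not tested.

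**Figure D2:**
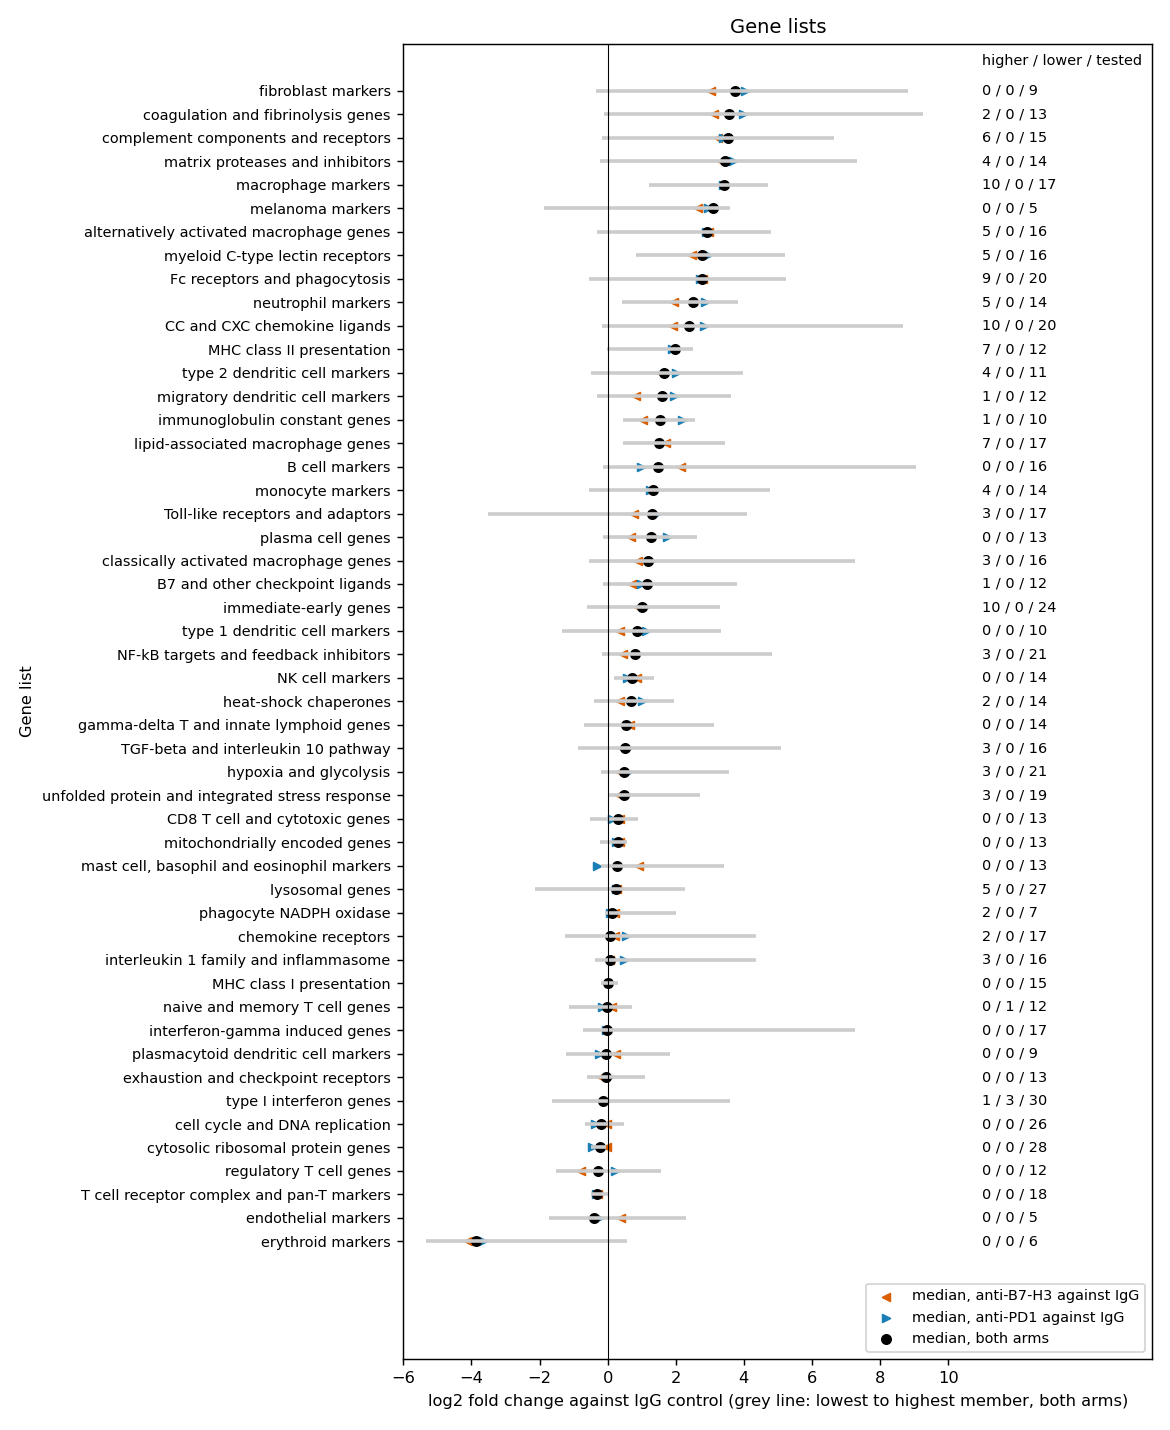
Log2 fold change of both antibody arms against control in each gene list with at least 5 tested members: black points are medians over tested members, triangles the medians of each arm, and grey lines run from the lowest to the highest member. The numbers at the right count members higher, lower and tested. Medians can be too high where members pass the filter on low counts through the antibody libraries alone. Macrophage markers, chemokine ligands and immediate-early genes have 10 calls each, and pan-T, MHC class I and ribosomal protein lists have 0.

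Genes used to mark alternatively activated macrophages rose in 5 of 16 tested members (3 without IgG control 1 or anti-PD1 2, median 2.91), and those of classically activated macrophages in 3 of 16 (median 1.19). Arg1, which breaks down arginine, stood at 93.4, 32 and 191 CPM in IgG controls 1, 2 and 3 and 828 to 1335 CPM (median 1076) in the 6 antibody libraries (3.32 ± 0.51, adjusted p = 0.0109, 4.07 without IgG control 3, 8 of 9 fits, not without IgG control 1, adjusted p up to 0.055). Tgm2, a transglutaminase, stood at 47.4, 9.66 and 45 CPM in the controls and 254 to 461 CPM (median 314) with antibody (3.33 ± 0.52, adjusted p = 0.0121, 8 of 9 fits, not without IgG control 3, adjusted p up to 0.0552). Neither overlapped. On the classical side, the calls were Il1b, the transcription factor Irf5 at 56.9, 70.4 and 61 CPM in the controls and 118 to 162 CPM (median 153) with antibody (1.24 ± 0.17, adjusted p = 0.00453) and Socs3, an inhibitor of cytokine signals (1.005 ± 0.17, adjusted p = 0.0142, 8 of 9 fits, not without IgG control 3, adjusted p up to 0.0552). Cxcl9, an interferon-gamma chemokine, had 1 count in the controls and missed the threshold (adjusted p = 0.053).

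Lipid-associated macrophage genes rose in 7 of 17 tested members (median 1.503). Spp1, which encodes osteopontin, stood at 84.1, 45.1 and 125 CPM in IgG controls 1, 2 and 3 and 417 to 1471 CPM (median 889) in the 6 antibody libraries (3.29 ± 0.38, adjusted p = 0.00177). Plin2, a lipid droplet coat protein, stood at 46.1, 70.7 and 54.4 CPM in the controls and 105 to 178 CPM (median 132) with antibody (1.25 ± 0.18, adjusted p = 0.00584). Lpl, lipoprotein lipase (1.89 ± 0.31, adjusted p = 0.0109), and Cd9, a tetraspanin (1.37 ± 0.27, adjusted p = 0.0295, 3 of 9 fits), rose as well. Of 27 tested lysosomal genes 5 rose, the proteases Ctsh (1.81 ± 0.24, adjusted p = 0.00354), Ctsl (2.28 ± 0.35, adjusted p = 0.00833), Ctsc (1.04 ± 0.17, adjusted p = 0.0107) and Ctsz (0.89 ± 0.17, adjusted p = 0.0295, 3 of 9 fits) and the granulin gene Grn (0.88 ± 0.17, adjusted p = 0.0279, 3 of 9 fits, adjusted p up to 0.0859). The share of all tested genes called higher was 1.46%. The median of the lysosomal list was 0.24. That list had 3 calls without IgG control 1, anti-B7-H3 2, anti-B7-H3 3, anti-PD1 1 or anti-PD1 2.

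Matrix proteases and coagulation factors included several genes that were almost absent from the controls. Of 14 tested matrix genes 4 rose (7 without IgG control 2), beside 1.46% of all tested genes. The median was 3.46, or 3.26 with genes at 0 in the controls set at their bounds. Genes can pass the filter on low counts through the antibody libraries alone, so this median can be too high. Mmp12, the macrophage elastase, stood at 30.5, 47 and 13.4 CPM in the controls and 161 to 275 CPM (median 218) with antibody, with no overlap (2.86 ± 0.37, adjusted p = 0.00342). Mmp13, a collagenase, had 3 counts in the controls and 1507 with antibody, a CPM ratio of 179 (95% counting interval 61.0 to 867; adjusted p = 0.00496). The 3 counts were in IgG control 1, and without it the controls were at 0. A counting interval treats the reads summed over libraries as the sample and leaves out the spread between libraries. Mmp19 stood at 0.251, 0 and 0 CPM in the controls and 3.56 to 16.7 CPM (median 4.62) with antibody (6.23 ± 1.22, adjusted p = 0.0295, 10.37 without IgG control 1, 4 of 9 fits, adjusted p up to 0.115), and Adam8, a sheddase of leukocytes, at 97.7, 70.7 and 102 CPM in the controls and 154 to 336 CPM (median 258) with antibody (1.45 ± 0.22, adjusted p = 0.00768). Of 13 tested coagulation genes 2 rose, F10 and F7, the factor VII gene, at 0.551, 0.124 and 0.156 CPM in the controls and 4.51 to 17.2 CPM (median 13.8) with antibody (5.41 ± 0.77, adjusted p = 0.00496, 6.41 without IgG control 1). Thbs1, which encodes thrombospondin 1, stood at 6.22, 0.0619 and 0 CPM in the controls and 85 to 268 CPM (median 121) with antibody but missed the threshold, with IgG control 1 far above the other controls (6.03 ± 1.51, adjusted p = 0.162).

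Toll-like receptors and adaptors had 3 calls of 17, beside 1.46% of all tested genes called higher. Tlr2, the receptor for bacterial lipoproteins, stood at 20.3, 8.6 and 10.9 CPM in the controls and 48.9 to 137 CPM (median 63.2) with antibody (2.45 ± 0.36, adjusted p = 0.00564), and Unc93b1, the transporter of endosomal receptors, at 65.3, 41.7 and 90.8 CPM in the controls and 134 to 284 CPM (median 216) with antibody (1.69 ± 0.28, adjusted p = 0.0129). Both were free of overlap, and Cd14 was the third call. In the phagocyte NADPH oxidase, which makes superoxide, 2 of 7 tested genes rose (1 in each of the 9 fits), among them the catalytic subunit Cybb (1.65 ± 0.34, adjusted p = 0.0383, 2 of 9 fits, adjusted p up to 0.0878). Of 16 tested genes of the TGF-beta and interleukin 10 pathway 3 rose. Vegfa, the vascular growth factor, stood at 17.6, 16.3 and 14.4 CPM in the controls and 52.1 to 107 CPM (median 72.4) with antibody (2.22 ± 0.21, adjusted p = 0.000627). Tgfbi, a matrix protein induced by TGF-beta, stood at 44.3, 13.1 and 48.7 CPM in the controls and 250 to 375 CPM (median 322) with antibody (3.17 ± 0.40, adjusted p = 0.00349), and Socs3 was the third.

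Stress and oxygen lists moved less, and 1.46% of all tested genes were called higher. Of 21 tested hypoxia and glycolysis genes 3 rose (median 0.49): Vegfa, the oxygen sensor Egln3 (1.27 ± 0.24, adjusted p = 0.0274, 2 of 9 fits, adjusted p up to 0.0935) and the lipid droplet gene Hilpda (1.48 ± 0.31, adjusted p = 0.0404, 2 of 9 fits, adjusted p up to 0.111). Of 19 tested genes of the unfolded protein and integrated stress response 3 rose, Creld2 (1.03 ± 0.19, adjusted p = 0.0223, 4 of 9 fits, adjusted p up to 0.0722), Sdf2l1 (0.76 ± 0.16, adjusted p = 0.0452, 1 of 9 fits, that without IgG control 2, adjusted p up to 0.133) and Ppp1r15a, which restarts translation (1.10 ± 0.24, adjusted p = 0.0472, 1 of 9 fits, that without IgG control 3, adjusted p up to 0.121). All 19 were positive in sign, beside 48.2% of all tested genes. Over the 9 fits the hypoxia list had 1 to 5 calls (5 without anti-B7-H3 1) and the stress list 0 to 2. Gdf15, a stress cytokine among the largest rises, stood at 0, 0 and 0.311 CPM in the controls and 4.51 to 24 CPM (median 6.32) with antibody (6.38 ± 1.27, adjusted p = 0.0325, 10.80 without IgG control 3, 3 of 9 fits, adjusted p up to 0.112).

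**Figure D3:**
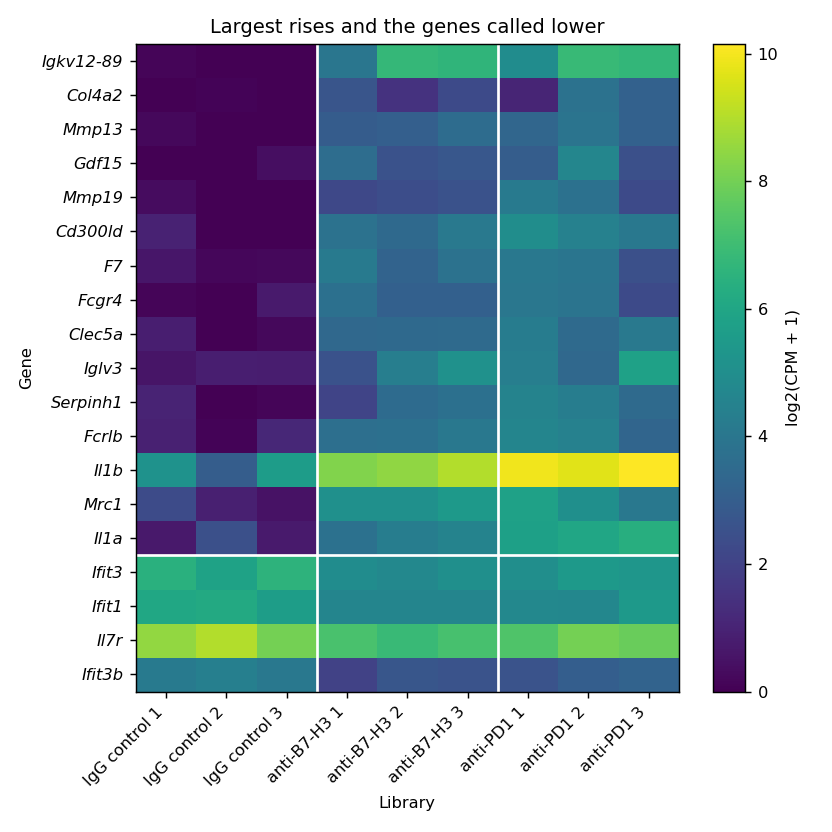
Log2 (CPM + 1) of the 15 largest rises chosen by the naming rule and of the 4 genes called lower, in each of the 9 libraries. White lines separate the groups and the direction of change. Most of the rises start near 0 in the controls, while Il1b and the 4 lower genes were well expressed there.

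The 4 genes that fell were interferon-induced Ifit genes and a cytokine receptor. Ifit proteins bind foreign RNA, and the 3 genes lie near each other on chromosome 19 of GRCm38, Ifit3 at chr19:34583531-34588731, Ifit3b at chr19:34607970-34613401 and Ifit1 at chr19:34640871-34650009. Ifit3 stood at 85.6, 56.8 and 94.6 CPM in IgG controls 1, 2 and 3 and 25.9 to 42.6 CPM (median 31.8) in the 6 antibody libraries (-1.25 ± 0.20, adjusted p = 0.0109, 7 of 9 fits, not without IgG control 1 or IgG control 3, adjusted p up to 0.0512). Ifit1 stood at 65.5, 71.1 and 49.5 CPM in the controls and 23.4 to 42.5 CPM (median 24.3) with antibody (-1.20 ± 0.22, adjusted p = 0.023, 3 of 9 fits, adjusted p up to 0.0801). Ifit3b, a near copy of Ifit3 with which it may share reads, stood at 17.4, 19.8 and 15.6 CPM in the controls and 2.97 to 8.35 CPM (median 5.35) with antibody (-1.65 ± 0.35, adjusted p = 0.0445, 0 of 9 fits, adjusted p up to 0.131). Each control was above each antibody library in all 3. Without IgG control 2 the changes were -1.42 (adjusted p = 0.00389) for Ifit3, -1.07 (adjusted p = 0.0794) for Ifit1 and -1.53 (adjusted p = 0.103) for Ifit3b.

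Of all 30 tested type I interferon genes 3 fell and 1 rose, Ifi204 (1.505 ± 0.31, adjusted p = 0.037, 1 of 9 fits, that without IgG control 2, adjusted p up to 0.0939). At an unadjusted p under 0.05, 7 were lower and 3 higher, and the median was -0.14 (0.01 without IgG control 1). With edgeR 0 of 17 interferon-gamma induced genes passed, 2 were higher and 1 lower at an unadjusted p under 0.05, DESeq2 gave the same counts and limma-voom gave 0. The promoters of Ifit1 (chr19:34640639-34640888, plus strand) and Ifit3 (chr19:34583279-34583528, plus strand) are shown for comparison with the rising genes. Capitals mark the interferon response letters GAAANN directly followed by GAAA, added to the search after seeing the data, and the motifs named before. Each promoter held 2 interferon response matches, 104 to 95 and 85 to 76 bases before the start in Ifit1 and 156 to 147 and 122 to 113 in Ifit3. Ifit1 also held the NF-kB letters 159 to 150 and Ifit3 the AP-1 letters 56 to 50 bases before the start.
Ifit1: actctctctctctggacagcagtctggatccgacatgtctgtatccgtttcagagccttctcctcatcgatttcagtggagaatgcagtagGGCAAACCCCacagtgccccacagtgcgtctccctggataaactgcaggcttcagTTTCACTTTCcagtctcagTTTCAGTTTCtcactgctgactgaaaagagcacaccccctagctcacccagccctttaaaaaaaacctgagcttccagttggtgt
Ifit3: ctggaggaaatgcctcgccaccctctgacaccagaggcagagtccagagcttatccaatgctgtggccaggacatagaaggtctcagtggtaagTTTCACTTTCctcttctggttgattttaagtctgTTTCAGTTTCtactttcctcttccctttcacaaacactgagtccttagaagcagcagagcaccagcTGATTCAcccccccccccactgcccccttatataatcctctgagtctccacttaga

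Of the 4 lower genes 3 held the interferon response letters, the exception being Il7r, beside 2.92% of tested genes and 3.04% of all promoters. Of the 152 higher genes 13 (8.55%) held them, so the letters were not limited to genes that fell. Il7r encodes the interleukin 7 receptor of naive and memory T cells and of innate lymphoid cells. It stood at 367, 509 and 264 CPM in IgG controls 1, 2 and 3 and 118 to 263 CPM (median 158) in the 6 antibody libraries. The lowest control, IgG control 3, exceeded the highest antibody library by a narrow margin (-1.13 ± 0.22, adjusted p = 0.0281, 3 of 9 fits, adjusted p up to 0.106). Without IgG control 2 the change was -0.84 (adjusted p = 0.106). It was the single call among 12 naive and memory T cell genes (median -0.01).

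Lymphocyte lists gave few calls, which does not show that their genes were unchanged. T cell receptor complex and pan-T markers were negative in 18 of 18 tested genes (median -0.31, lowest -0.50), where 48.2% of all tested genes were positive. Of these 18, 0 passed with edgeR, DESeq2 or limma-voom and 5 had an unadjusted p under 0.05. Their summed levels were 9256 to 12650 CPM in the controls, 7601 to 10690 CPM in the anti-B7-H3 arm and 7839 to 9564 CPM in the anti-PD1 arm, which overlapped. Trac, the alpha chain constant gene, stood at 884, 1339 and 996 CPM in the controls and 617 to 1109 CPM (median 681) with antibody (-0.50 ± 0.21, adjusted p = 0.397). Lck, the kinase of T cell receptor signalling, stood at 1302, 1493 and 1391 CPM in the controls and 879 to 1445 CPM (median 1042) with antibody (-0.37 ± 0.16, adjusted p = 0.404).

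Of 13 tested CD8 and cytotoxic genes 0 passed with edgeR or limma-voom and 1 passed with DESeq2 and at an unadjusted p under 0.05. Ifng, the interferon-gamma gene, was higher in each antibody library, at 46.1, 33.2 and 35.2 CPM in the controls and 59.1 to 89.7 CPM (median 67.9) with antibody (0.90 ± 0.22, adjusted p = 0.0808). Gzmb, a cytotoxic protease, overlapped at 511, 234 and 419.7 CPM in the controls and 268 to 913 CPM (median 609) with antibody (0.63 ± 0.35, adjusted p = 0.557). NK cell markers were positive in 14 of 14 tested genes (median 0.72), beside 48.2% of all tested genes. They had 0 calls by edgeR and limma-voom, 2 by DESeq2 and 4 at an unadjusted p under 0.05 (11.7% of all tested genes). Ncr1, an activating receptor, overlapped at 115, 43 and 86.5 CPM in the controls and 97.4 to 218 CPM (median 158) with antibody (0.95 ± 0.32, adjusted p = 0.251). Without IgG control 2, the lowest library for Ncr1, the list's median was 0.34.

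Regulatory T cell genes, exhaustion receptors, and gamma-delta T and innate lymphoid genes had 0 calls with edgeR and limma-voom and 1 each with DESeq2. At an unadjusted p under 0.05 they had 2, 3 and 1 members of 12, 13 and 14 tested, where 11.7% of all tested genes did. Fitted for each arm against IgG, 1 gamma-delta T and innate lymphoid gene passed for anti-PD1 and 0 for anti-B7-H3. Havcr2, which encodes the inhibitory receptor TIM-3, stood at 14.9, 5.51 and 8.92 CPM in the controls and 13.8 to 29.9 CPM (median 20.2) with antibody (1.11 ± 0.38, adjusted p = 0.257). Il10, the inhibitory cytokine gene, stood at 8.22, 2.29 and 7.78 CPM in the controls and 6.53 to 45.1 CPM (median 15.3) with antibody (1.56 ± 0.52, adjusted p = 0.243). Of 26 tested cell cycle genes 0 passed with any of the 3 tools and 1 had an unadjusted p under 0.05. Mitochondrially encoded genes (13 tested) and cytosolic ribosomal protein genes (28 tested) had 0 calls by any of these and 0 at an unadjusted p under 0.05. Their signs were one-sided too, with 12 of 13 mitochondrial genes positive (median 0.30) and 0 of 28 ribosomal protein genes (median -0.23). Over the 9 fits these medians ran from 0.0329 to 0.875 and from -0.516 to 0.307. Plasmacytoid dendritic cell markers (9 tested) had 0 calls with edgeR and limma-voom, 1 with DESeq2 and 2 at an unadjusted p under 0.05. Mast cell, basophil and eosinophil markers (13 tested) had 0 by each tool and 1 at an unadjusted p under 0.05. B cell markers also had 0 calls of 16 with edgeR and limma-voom, 1 with DESeq2 and 4 at an unadjusted p under 0.05.

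Immunoglobulin genes had 3 calls with the arms averaged. Ighm, the IgM heavy chain constant gene, was the single call among 10 tested immunoglobulin constant genes (median 1.54), at 5082, 5259 and 2381 CPM in IgG controls 1, 2 and 3 and 6939 to 22430 CPM (median 11330) in the 6 antibody libraries (1.48 ± 0.29, adjusted p = 0.0296, 4 of 9 fits, adjusted p up to 0.0785). Igkc, the kappa light chain constant gene, was higher in each antibody library, at 2245, 3287 and 745 CPM in the controls and 3879 to 12030 CPM (median 6637) with antibody, without passing (1.68 ± 0.41, adjusted p = 0.0912). Fitted for each arm against IgG, 0 of the 10 constant genes passed for anti-B7-H3 and 3 for anti-PD1. Both V segments that passed with the arms averaged were near 0 in the controls. Igkv12-89 had 2 counts in the controls and 12949 with antibody, a CPM ratio of 2303 (95% counting interval 637 to 19020; adjusted p = 0.00413), with 14.8 to 113 CPM (median 101) in the antibody libraries. The 2 counts were in IgG control 1, and without it the controls were at 0. Its antibody libraries held 199 to 3175 counts, a spread that the counting interval leaves out. Iglv3 stood at 0.501, 0.805 and 0.778 CPM in the controls and 4.97 to 55.8 CPM (median 19.2) with antibody (5.07 ± 0.83, adjusted p = 0.0115, 6 of 9 fits, adjusted p up to 0.0695). V segments resemble each other and their reads can be shared. With the arms averaged, plasma cell genes had 0 calls of 13 with edgeR, 8 with DESeq2, 1 with limma-voom and 8 at an unadjusted p under 0.05. Fitted for each arm against IgG with edgeR, 0 passed for anti-B7-H3 and 4 for anti-PD1. Irf4, a transcription factor of plasma cells, came closest at 10.3, 12.5 and 3.84 CPM in the controls and 20.8 to 38.7 CPM (median 28) with antibody (1.66 ± 0.37, adjusted p = 0.0558).

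Marker genes of cell types outside the CD45+ gate had low levels, and those of fibroblasts and matrix were higher with antibody. Over 14 fibroblast markers the summed level was 57.1 to 82.8 CPM in the controls and 90.0 to 164 CPM with antibody. Of the 9 tested, 0 passed with edgeR and limma-voom, 4 passed with DESeq2 and had an unadjusted p under 0.05, and the median was 3.75 (2.85 without IgG control 2, 2.93 without anti-PD1 2). A gene can pass the filter on low counts through the antibody libraries alone, so this median can be too high. Without Thy1, which T cells also express, the sum of the other 13 was 0.989 to 6.33 CPM in the controls and 28.3 to 106 CPM with antibody, with no overlap. Summed over the 3 controls and the 6 antibody libraries, counts were 103 and 4449 for Sparc, 10 and 791 for Col6a1, 0 and 452 for Col5a1, and 11 and 429 for Postn, all matrix proteins. They were 26 and 307 for Col1a2, 10 and 230 for Col1a1, 38 and 143 for Fbn1 and 7 and 131 for Lum. The surface receptors Pdgfrb and Pdgfra had 0 and 41 and 3 and 9 counts, Dcn 0 and 23, and Fap 3 and 0. Col3a1, a fibrillar collagen, stood at 0.902, 0 and 0 CPM in the controls and 6.63 to 20.01 CPM (median 11.7) with antibody (5.30 ± 1.20, adjusted p = 0.0663). Col4a2, a basement membrane collagen, was called, with 1 count in the controls and 830 with antibody, a CPM ratio of 295 (95% counting interval 52.8 to 11670; adjusted p = 0.0238, 5 of 9 fits, adjusted p up to 0.0857). That count was in IgG control 2, and without it the controls were at 0. This counting interval too leaves out the spread between libraries. Serpinh1, the collagen chaperone, was also called, at 1, 0 and 0.104 CPM in the controls and 3.19 to 22.4 CPM (median 11.6) with antibody (5.02 ± 1.08, adjusted p = 0.0488, 7.71 without IgG control 1, 3 of 9 fits, adjusted p up to 0.136). The part of fibroblast RNA in the rise of these and of the matrix proteases was not tested.

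Over 12 melanoma markers the sum was 4.62 to 15.3 CPM in the controls and 3.09 to 21.2 CPM with antibody. Counts in the controls and with antibody were 25 and 651 for Sox10, 10 and 323 for Mitf and 6 and 228 for S100b. They were 236 and 194 for Pmel and 213 and 319 for Trpm1. Dct was at 0 in each library, Mlana had 6 and 0 counts and Tyr 0 and 83, all in anti-PD1 1. The 5 tested markers had a median of 3.09 (1.34 without IgG control 1, with 6 tested, the lowest over the 9 fits, and 2.54 without IgG control 2). The other members were below the filter on low counts, which a gene can pass through the antibody libraries alone. This median can therefore be too high, and the sums over all 12 markers overlapped. The part of melanoma RNA in the results was not tested. Over 11 endothelial markers the sums were 74.9 to 87.4 and 43.0 to 109 CPM, and without Pecam1, which leukocytes share, 0.0618 to 2.49 and 0.959 to 8.22 CPM. Haemoglobin and other erythroid markers summed to 30.5 to 527 CPM in the controls and 72.2 to 134 CPM with antibody, with IgG control 3 at the top. Car2 alone held 75.7, 23 and 91.7 CPM in IgG controls 1, 2 and 3 and 69.1 to 126.5 CPM with antibody. Haemoglobin genes were 0.00753%, 0.000776% and 0.041% of counts in IgG controls 1, 2 and 3 and 0.000193% to 0.0029% with antibody. Keratinocyte markers summed to 8.66 to 23.3 CPM in the controls and 15.1 to 20.7 CPM with antibody. Of these 4 lists 0 members passed with edgeR or limma-voom, and 2 erythroid genes were lower with DESeq2. At an unadjusted p under 0.05, 2 melanoma markers were higher and 3 erythroid genes lower.

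The arms were then read side by side for the 192 genes that rose. They share the 3 controls, so the arms' changes against IgG are not independent of each other. The median log2 change was 1.91 for anti-B7-H3 (range 0.62 to 10.79) and 2.19 for anti-PD1 (range 0.78 to 10.96). Each of the 192 was therefore positive in both arms. Fitted for each arm against IgG, 112 genes (0.85%) passed for anti-B7-H3, of which 109 (0.827%) were higher and 3 (0.0228%) lower. For anti-PD1 229 (1.74%) passed, 227 (1.72%) higher and 2 (0.0152%) lower. In each of the chemokine receptor, heat-shock chaperone and stress response lists, 0 members passed for anti-B7-H3 and 3 for anti-PD1. Tested directly against each other, 0 of 13178 genes differed between arms with edgeR, while 425 (3.23%) had an unadjusted p under 0.05, DESeq2 called 15 and limma-voom 2.

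Of the 192 genes 150 had a larger fitted change with anti-PD1, and over all 13178 tested genes 46.2% did, with a median difference of -0.04. Of the 192, 45 had an unadjusted p under 0.05 for the difference. Their median difference was 0.32 and the median reach of its 95% interval was 0.7 on either side, so differences below about that size were not resolved for a typical gene. Cxcl2 had the smallest p. It stood at 57, 68.9 and 63.5 CPM in the anti-B7-H3 libraries and 169.7, 175 and 212 CPM in the anti-PD1 libraries, a difference of 1.55 (95% interval 0.95 to 2.16, unadjusted p = 0.00016). S100a9 stood at 124, 84.4 and 142 CPM and 253, 365 and 274 CPM, a difference of 1.35 (95% interval 0.79 to 1.91, unadjusted p = 0.00026). Neither overlapped between the arms.

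Mt1, a metallothionein that binds zinc, stood at 65.5, 83 and 52.9 CPM in the anti-B7-H3 arm and 134, 167 and 141 CPM in the anti-PD1 arm, beside 41.7, 32.4 and 55.7 CPM in the controls (pooled 1.20 ± 0.23, adjusted p = 0.0238, 3 of 9 fits, adjusted p up to 0.0741). Its difference between arms was 1.13 (95% interval 0.58 to 1.68, unadjusted p = 0.00088). Ifrd1, a transcriptional regulator (1.03, 95% interval 0.51 to 1.55, unadjusted p = 0.0011; called in 3 of 9 fits, adjusted p up to 0.075), Ighm (1.21, 95% interval 0.51 to 1.91, unadjusted p = 0.0029) and Ets2, a transcription factor (0.997, 95% interval 0.39 to 1.60, unadjusted p = 0.0041; called in 1 of 9 fits, that without anti-PD1 3, adjusted p up to 0.119), came next. All 6 genes had an adjusted p of 1.0 for this difference. By contrast the interval was centred near 0 for Fcgr2b, at 0.00 (95% interval -0.54 to 0.54, unadjusted p = 1), and for H2-Ab1, at 0.03 (95% interval -0.57 to 0.63, unadjusted p = 0.91). Irf5 had one of the narrowest intervals, -0.02 (95% interval -0.43 to 0.39, unadjusted p = 0.91), and Lyz2 leaned to anti-B7-H3, at -0.53 (95% interval -1.34 to 0.28, unadjusted p = 0.18).

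Averaging the arms added 9 genes that passed in neither arm alone. Among them, Irf2bp2, a transcriptional co-repressor, stood at 38.3, 40.6 and 85.8 CPM in the controls and 112 to 239.8 CPM (median 160.5) with antibody (1.66 ± 0.34, adjusted p = 0.0396, 2 of 9 fits, adjusted p up to 0.119). Kctd12 (1.70 ± 0.36, adjusted p = 0.0428, 0 of 9 fits, adjusted p up to 0.128) and the membrane protease Adam15 (1.21 ± 0.26, adjusted p = 0.0456, 2 of 9 fits, adjusted p up to 0.134) also rose. Cybb, Cd209a, Ifit3b, Itgam, Ppp1r15a and 5031439G07Rik (1 of 9 fits, that without IgG control 1) were the others. Their pooled adjusted p values lay close to the threshold, between 0.0383 for Cybb and 0.0488 for Itgam.

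**Figure D4:**
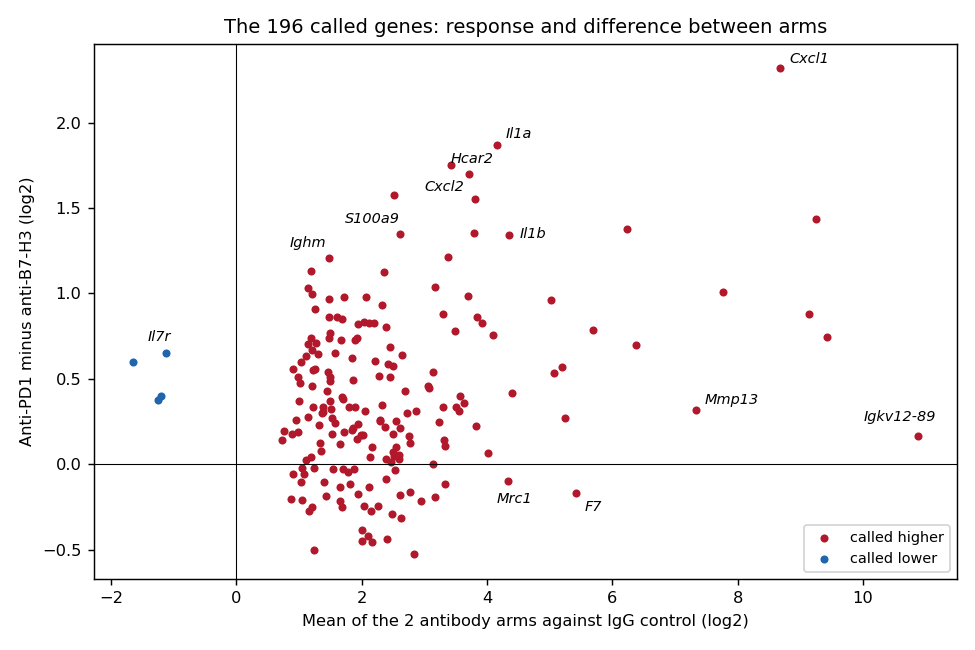
Each point is 1 of the 196 called genes, by the mean log2 change of both arms against control (horizontal) and the difference between the arms (vertical, positive where anti-PD1 is higher). Red points rose and blue points fell. Most lie above 0 on the vertical axis (150 of the 192 red points), with Cxcl1, Il1a, Hcar2 and Cxcl2 among the highest.

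Of the 196 called genes, 102 belonged to a list and 94 to none. The following were taken from these 94 after their values were seen. Cebpb, a transcription factor of myeloid inflammation, stood at 124, 91.4 and 135 CPM in the controls and 424 to 959 CPM (median 712) with antibody (2.504 ± 0.25, adjusted p = 0.00072). Spi1, which encodes PU.1, the factor that specifies myeloid cells, stood at 24.5, 29.6 and 28.6 CPM in the controls and 76 to 136 CPM (median 109.5) with antibody (1.98 ± 0.23, adjusted p = 0.00193). Neither overlapped between the groups, and both passed in 9 of 9 fits. Osm, the cytokine oncostatin M, stood at 36.7, 27.2 and 48.5 CPM in the controls and 132 to 270.1 CPM (median 213) with antibody (2.45 ± 0.26, adjusted p = 0.000931).

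The shared subunit of the GM-CSF receptor, Csf2rb (1.84 ± 0.30, adjusted p = 0.0104), and its alpha chain, Csf2ra (2.37 ± 0.40, adjusted p = 0.0129), both rose. So did the Src-family kinases of myeloid cells Fgr (2.17 ± 0.37, adjusted p = 0.0142) and Lyn (1.09 ± 0.20, adjusted p = 0.0238, 3 of 9 fits). Inhba, a subunit of activin, stood at 3.61, 5.01 and 10.2 CPM in the controls and 11.6 to 70.8 CPM (median 35.5) with antibody (2.51 ± 0.42, adjusted p = 0.0133), and Cdkn1a, which encodes the cell cycle inhibitor p21, at 32.3, 29.8 and 61.6 CPM in the controls and 132 to 282 CPM (median 188) with antibody (2.20 ± 0.26, adjusted p = 0.00177). Hcar2, the receptor for niacin and ketone bodies, stood at 6.12, 10.9 and 1.82 CPM in the controls and 26.3 to 160.3 CPM (median 97.4) with antibody (3.71 ± 0.55, adjusted p = 0.00873, 4.38 without IgG control 2, 8 of 9 fits, not without IgG control 1). Pla2g7, a lipase that inactivates platelet-activating factor, rose too (2.75 ± 0.31, adjusted p = 0.00149). None of the genes in this and the preceding paragraph overlapped between groups.

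Genes with 0 counts in all 3 controls and a call were, besides Cxcl1, Ccn1, a matricellular protein (at least 73.3-fold), Nkd2, an inhibitor of Wnt signalling (at least 69.1-fold), and Msx3, a homeobox gene (at least 54.8-fold). Their antibody libraries held 1.92 to 8.69, 1.11 to 7.31 and 1.2 to 6.56 CPM. All 3 were low and passed in 3, 2 and 1 of the 9 fits.

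**Figure D5:**
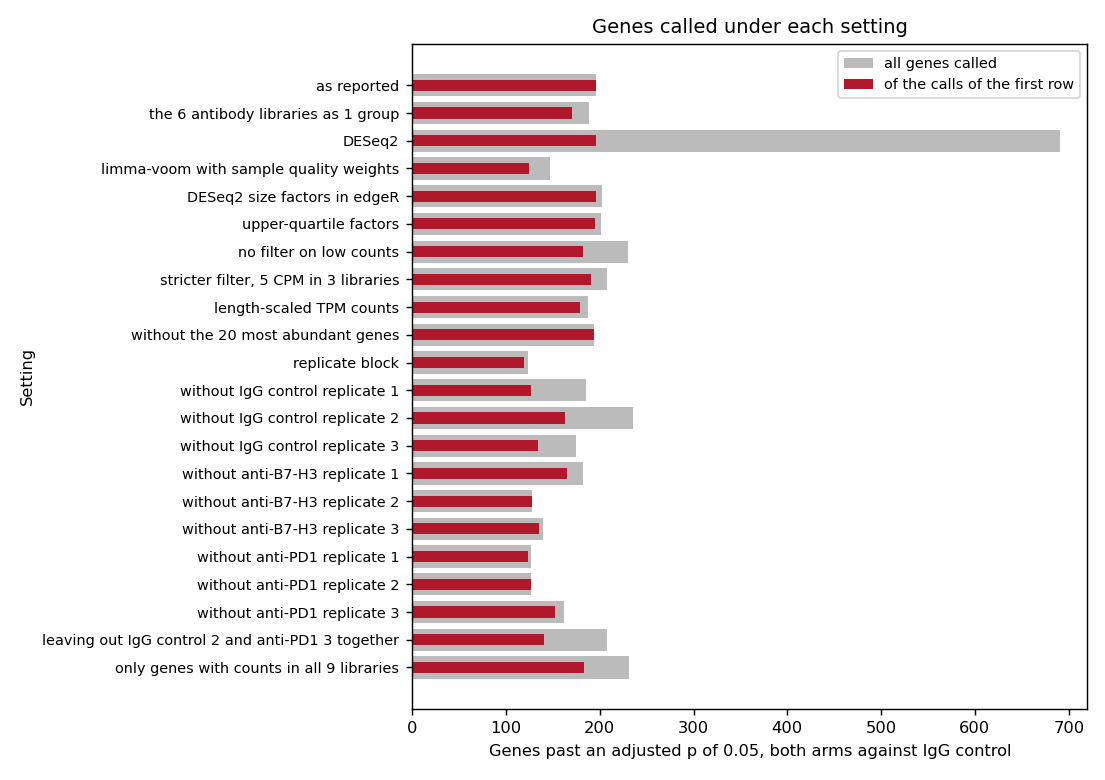
Genes past an adjusted p of 0.05 for both arms against control under each setting (grey bars) and how many of them are among the 196 of the first row (red bars). DESeq2 calls 691 genes, and the fits that leave out 1 library call 127 to 235.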

How the data were processed

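The 9 libraries of sorted CD45+ cells (3 per treatment) were made with an amplifying kit for low RNA input (SMART-Seq v4) and Nextera XT, per the labels' protocols, and these kits do not mark strand. The deposited tables hold, per transcript, an estimated count of reads and TPM, per the file headers. The quantifier is not given in the sources used here; the submitters' processing notes name GRCm38 and FastQC 0.11.8. Of 58083 transcripts, 57409 were matched to 22136 GENCODE M21 genes. Estimated counts were summed per gene and rounded, and deposited TPM entered a length-scaled alternative only. Most transcript models (87.3%) had a length that is a multiple of 3, so reads in UTRs may not be counted. Between 14441241 and 31447314 counts per library fell on genes, and 3 counts amount to 0.0954 to 0.208 CPM.

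One edgeR 4.0.16 quasi-likelihood fit (R 4.3.3, robust, TMM factors, filterByExpr) over all 9 libraries gave each contrast, with Benjamini-Hochberg adjustment over 13178 genes and a threshold of 0.05. SE is the log2 fold change divided by the square root of F. Alternatives were DESeq2 1.42.0, limma 3.58.1 (voom), other scalings and filters, a replicate block and each library left out. The fitting code was tested on simulated data in which both antibody arms changed alike. Of 50 genes changed at each size, 5 were recovered at 2-fold, 31 at 4-fold, 29 at 8-fold and 42 at 16-fold. There were 5 false calls among 12773 tested genes. A list with 0 calls can therefore hold changes that were missed.

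Named genes were called genes with at least 5 CPM and no overlap, the 15 largest rises and the lower calls. To these were added up to 6 called in neither arm, up to 6 with the smallest p between arms, the target genes, and up to 4 members of each of 51 lists with the smallest p. Other called genes, such as Cebpb, Spi1, Cd74, Ccl24, Cxcl1, Cxcl3 and Jun, were chosen after their values were seen. The members, lists and rules were chosen with earlier results of these data known. Members below the count filter were not tested, and a gene can pass that filter through the antibody libraries alone. Genes with near copies (immunoglobulin segments, Ifit3 and Ifit3b, H2 genes) can share reads. Some measured genes are not reported here.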

Additional observations from a re-analysis of the deposited data

Results flagged for a closer look

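In anti-B7-H3 1, 0.547% of estimated counts fell on transcripts that matched no gene, above the 0.283%, 0.316% and 0.236% in IgG controls 1, 2 and 3 and the 0.26% to 0.278% in the other antibody libraries. These counts entered no comparison.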

How the results depend on the processing

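All 196 calls, where tested, kept their direction in each of the 21 other fits, and 78 passed in all of them. DESeq2 called 625 genes higher and 66 lower (90.4% higher), 395 for anti-B7-H3, 659 for anti-PD1 and 15 between arms. Limma-voom gave 7 lower genes and 2 between arms. With no filter on low counts, 7 genes were lower and the median over all genes was 0.129. Leaving out 1 library at a time gave 125 to 232 higher and 1 to 17 lower genes, 59 to 144 for anti-B7-H3, 113 to 262 for anti-PD1 and 0 to 1 between arms. The 17 lower genes came without IgG control 3 (90.3% higher), and the fewest calls, 127, without anti-PD1 1 or anti-PD1 2. Without anti-B7-H3 2 there were 128. The cause was not tested. A pair of alternatives was added after seeing the data. Without IgG control 2 and anti-PD1 3 together 208 genes passed, and among genes with counts in all 9 libraries 231 passed.

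With the replicate number as a block, 121 genes were higher and 2 lower, 64 passed for anti-B7-H3, 127 for anti-PD1 and 0 between arms. Deviations of libraries with the same number from their group means correlated from -0.12 to 0.156. These deviations include those of IgG control 2 and anti-PD1 3, which stood apart. Whether libraries with the same number share an animal, a day or a preparation is not stated in the labels and was not tested.

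In the shallowest library a count of 0 allows a level of up to 0.208 CPM.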
